A study of Mus musculus with 12 samples.

Results

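Aminoacyl-tRNA synthetases are the enzymes that join each amino acid to its transfer RNA (tRNA), the step that makes the genetic code readable at the ribosome. Mammalian cells hold a cytosolic set and a mitochondrial set, and the mitochondrial enzymes are also encoded in the nucleus, made in the cytosol and imported. The genes were taken by name. They are rows of the deposited table whose identifier maps to a mouse symbol of 1 amino acid letter followed by "ars", with or without a final 1 or 2, together with Farsa, Farsb and Eprs. A final 2 marks the mitochondrial enzymes. Of the 14675 gene rows 34 are reported here, 20 cytosolic and 14 mitochondrial, and no measured level entered the choice. Ears2 and Pars2, the mitochondrial enzymes for glutamate and proline, also fall under the rule but have no row in the table and were not analysed here.

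The RNA came from adult mouse dorsal root ganglia (DRG), the ganglia that hold the cell bodies of sensory neurons. All mice had the genotype RPL22HA+/+;Advillin-Cre+, in which Cre under the Advillin gene's control, active mainly in peripheral sensory neurons, switches on an HA tag on the ribosomal protein RPL22 (the RiboTag method). The 4 groups were anti-HA immunoprecipitate (IP) after AAV-shGpr151 with AAV-e5'UTR, IP after AAV-shGpr151, input after AAV-shGpr151 with AAV-e5'UTR, and input after AAV-shGpr151, each with 3 deposited columns. AAV is an adeno-associated virus used as a vector, and shGpr151 is a short hairpin RNA against Gpr151, an orphan receptor gene. The treatment with both viruses is called e5UTR below. Neither the gene behind the e5'UTR insert nor the number of pooled animals is labelled, and the age is given as adult only. Every group analysed here carries the hairpin. The design text has neurons cultured after a preconditioning injury of the sciatic nerve, the protocol has freshly collected ganglia, and which of these was sequenced is unsettled.

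Column totals were 1514948 to 1517685 estimated counts in IP with e5UTR, 1381220 to 1382261 in IP with shGpr151, 975403 to 977366 in input with e5UTR and 984118 to 985277 in input with shGpr151. The 3 columns of a group differed by little more than counting noise (median chi-square 1.08 to 1.12 times its expectation), so each group was counted as 1 pool of reads. Gpr151, the hairpin's target, had 128 and 108 counts in the IP pools with e5UTR and with shGpr151, and 29 and 35 counts in the input pools, which cannot show its knockdown without a group that lacks the hairpin. Levels below are counts, or CPM, the count as a share of the library on a scale common to all pools, after TMM scaling, a scaling that centres the bulk of genes between libraries. They are not divided by transcript length, so levels are compared between pools and not between genes.

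Cytosolic synthetases fall into class I and class II by the fold of the catalytic domain. In mammals 8 of the genes listed here encode enzymes of the multi-tRNA synthetase complex, held together by the scaffold proteins Aimp1, Aimp2 and Eef1e1, and the others encode free enzymes. Many cytosolic synthetase genes are targets of the transcription factor ATF4 in the amino acid response, through a composite element with the core TGATGNAA. Dominant mutations in several cytosolic synthetases cause inherited peripheral neuropathy in humans, a disease of the long axons of motor and sensory neurons.

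The promoters that hold this element are shown because a match was found in cytosolic and in no mitochondrial synthetase promoter of the table. RefSeq promoters (build GRCm38.p6, 250 bases before to 50 after the start) were searched for TGATGNAA on both strands, where it reads TTNCATCA on the reverse strand. Each line is the match nearest to the start of its gene and runs 5′ to 3′ in the gene's direction, with the match in capitals.
Gars (chr6:55037960-55037989, plus strand): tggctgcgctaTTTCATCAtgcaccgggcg
Aars (chr8:111033840-111033869, plus strand): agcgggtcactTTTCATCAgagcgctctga
Yars (chr4:129189895-129189924, plus strand): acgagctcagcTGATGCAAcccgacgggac
Iars (chr13:49682126-49682155, plus strand): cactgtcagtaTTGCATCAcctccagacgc
Tars (chr15:11399655-11399684, minus strand): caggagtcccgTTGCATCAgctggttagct

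A match stood in 5 of the 13 cytosolic genes with a promoter in the table (38.5%) and in 0 of the 13 mitochondrial genes. Over all genes of the promoter table the share was 1219 of 27025 (4.51%), and over the tested genes with a promoter it was 159 of 5702 (2.79%). Of the windows shown, that of Yars alone had the element in the gene's own direction. A match in these windows is a run of letters and not a measured binding site. Cars, Hars, Hars2, Lars, Nars, Rars, Vars and Wars have no entry in the promoter table.

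IP was compared with input to see which synthetase mRNAs were bound to tagged ribosomes beyond their share of total ganglion RNA. Cytosolic synthetase mRNAs were mostly higher in IP: of 20 genes, all tested, 16 were higher, 3 were lower (Kars, Tars and Qars, the last of which turned to a log2 ratio of 0.33 by library totals) and Farsa did not pass. Among all 8085 tested genes 33.5% were higher and 36.2% were lower by the same test, which is edgeR's quasi-likelihood test on the 4 pools with Benjamini-Hochberg adjustment over all tested genes and a threshold of 0.05. The median log2 ratio of IP to input was 1.36 over the cytosolic genes and 0.06 over all tested genes. Scaled by library totals instead, the median of all tested genes moved up by 0.93, the cytosolic median was 2.30, and every ratio below is to be read relative to that choice. The p-values measure the spread among the 4 pools, 2 in each fraction, and nothing in the labels says that the pools came from separate animals.

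All 20 cytosolic genes passed the filter on low counts, but 6 of them (Cars, Farsa, Farsb, Iars, Mars and Vars) passed through their IP columns only and so had to be high there. Of the 14 that would pass by the input columns alone, 11 were higher and 3, with Qars among them, were lower. Among the 5190 genes that pass in that way, 20.9% were higher and 55.2% were lower, with a median log2 ratio of -0.67. The same median over the 14 cytosolic genes was 0.96.

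Gars and Aars had the largest ratios among the tested synthetase genes, at positions 56 and 58 from the top of all 8085 tested genes. Gars encodes glycyl-tRNA synthetase, which in mammals serves cytosol and mitochondria from 1 gene and whose mutations cause a form of Charcot-Marie-Tooth disease in humans. Its counts in the 3 columns were 445, 483 and 505 in IP with e5UTR and 473, 453 and 460 in IP with shGpr151, against 15, 16 and 18 in input with e5UTR and 16, 19 and 30 in input with shGpr151. In CPM these pools held 229 and 241 in IP and 23.1 and 30.5 in input. The log2 ratio was 3.13 ± 0.16 (SE, n = 2 pools a fraction), or 8.77-fold, with an edgeR adjusted p of 7.1e-10. No IP column came near an input column.

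Aars, the alanyl-tRNA synthetase gene, had 267, 271 and 261 counts in IP with e5UTR and 220, 205 and 205 in IP with shGpr151. The input columns had 10, 9 and 7 counts with e5UTR and 8, 12 and 12 with shGpr151. The fold of IP over input was 8.69, with a log2 ratio of 3.12 ± 0.19 (SE) and an edgeR adjusted p of 2.8e-09. The gene overlaps Ddx19b in the reference annotation, which had 27 and 26 counts in the IP pools and 8 and 4 in the input pools.

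Cars, for cysteine, was scarce in input. It had 67, 74 and 68 counts in IP with e5UTR and 59, 51 and 61 in IP with shGpr151, against 2, 6 and 3 in input with e5UTR and 6, 4 and 1 in input with shGpr151. Its log2 ratio was 2.60 ± 0.26 (SE; edgeR adjusted p = 7.4e-07). With 11 counts in each input pool, the ratio of pooled CPM was 6.45 (95% interval 3.53 to 13.1) with e5UTR and 5.77 (3.14 to 11.8) with shGpr151. Such intervals cover counting error only, since the reads came from amplified cDNA with no molecular identifiers given.

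Nars, for asparagine, had the highest counts of any synthetase gene in IP. The columns held 1253, 1219 and 1223 counts in IP with e5UTR and 1308, 1246 and 1322 in IP with shGpr151, against 92, 76 and 90 in input with e5UTR and 99, 79 and 90 in input with shGpr151. Its log2 ratio was 2.36 ± 0.13 (SE; edgeR adjusted p = 1.1e-09), and the IP columns lay far above the input columns.

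Wars and Yars, for tryptophan and tyrosine, also belong to the human neuropathy genes. Wars had 135, 125 and 153 counts in IP with e5UTR and 107, 105 and 101 in IP with shGpr151, against 13, 7 and 5 in input with e5UTR and 10, 14 and 7 in input with shGpr151. Yars had 161, 175 and 177 counts in IP with e5UTR and 149, 146 and 134 in IP with shGpr151, against 14, 18 and 8 in input with e5UTR and 10, 16 and 11 in input with shGpr151. Their log2 ratios were 2.19 ± 0.21 and 2.11 ± 0.17 (SE), with edgeR adjusted p of 4.2e-07 and 9.6e-08. In both genes the lowest IP column stood above the highest input column.

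**Figure D1:**
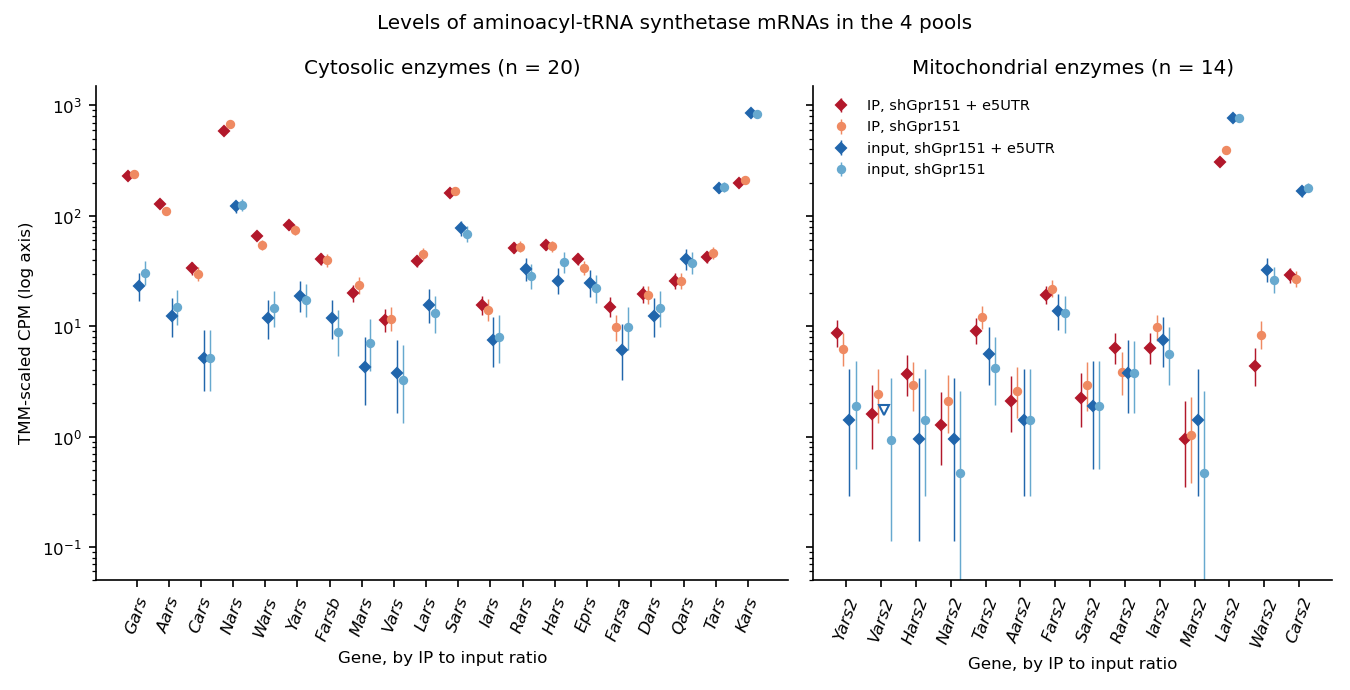
TMM-scaled CPM (log axis) of the 20 cytosolic and 14 mitochondrial synthetase genes in the 4 pools, with exact Poisson 95% intervals, ordered by the ratio of IP to input. Gars stood at 229 and 241 CPM in the IP pools and 23.1 and 30.5 CPM in the input pools, while Kars stood at 198 and 211 CPM in the IP pools and 860 and 838 CPM in the input pools. The open triangle is the upper limit for Vars2, which had 0 counts in input with e5UTR, and the axis ends at 0.05.

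The other cytosolic genes that were higher in IP spanned a wide range. Farsb, the beta subunit of phenylalanyl-tRNA synthetase, had 40.6 and 39.6 CPM in the IP pools with e5UTR and with shGpr151 and 11.8 and 8.90 CPM in the input pools. Mars, for methionine, had 19.98 and 23.47 CPM in the IP pools and 4.24 and 7.03 CPM in the input pools. Mars overlaps Ddit3, which had 1128 and 980 counts in the IP pools and 243 and 268 in the input pools, and whether the counting used strand is not given. Vars, for valine, had 11.3 and 11.6 CPM in the IP pools and 3.77 and 3.28 CPM in the input pools. Lars, for leucine, had 39.3 and 45.4 CPM in the IP pools and 15.5 and 13.1 CPM in the input pools. Log2 ratios of these 4 genes ran between 1.56 and 1.95.

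Sars, for serine, had 161 and 167 CPM in the IP pools and 77.2 and 68.9 CPM in the input pools, a log2 ratio of 1.17 ± 0.13 (SE). Smaller ratios were found for Iars at 0.93 ± 0.27, Rars at 0.76 ± 0.17, Hars at 0.75 ± 0.18, Eprs at 0.67 ± 0.19 and Dars at 0.53 ± 0.22, the genes for isoleucine, arginine, histidine, glutamate with proline, and aspartate. Farsa, the alpha subunit for phenylalanine, had a log2 ratio of 0.64 ± 0.33 and an edgeR adjusted p of 0.10. It had 15.02 and 9.735 CPM in the IP pools and 6.12 and 9.84 CPM in the input pools, so the pools overlapped. In the reference annotation Farsb overlaps Sgpp2 over 2332 bases. Short overlaps join Wars with Wdr25 (24 bases), Rars2 with Orc3 (7 bases) and Hars with Hars2 (4 bases). Whether reads were split between such pairs was not tested.

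Several calls of the small ratios changed when a pool was left out, which leaves 1 pool in a fraction, though the ratios kept their direction. The call of Dars (edgeR adjusted p = 0.047 with all pools) was lost without any 1 of the 4 pools. Its log2 ratio then ran from 0.42 to 0.66, beside 0.53 with all pools. Eprs was not called without the input pool with shGpr151 (edgeR adjusted p of 0.063), and Hars was not called without the input pool with e5UTR (0.088). Farsa was called without the IP pool with shGpr151 (0.046) or without the input pool with shGpr151 (0.036).

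Kars, Tars and Qars went the other way. Kars encodes lysyl-tRNA synthetase, which like Gars serves both compartments from 1 gene. Its columns held 443, 409 and 386 counts in IP with e5UTR and 389, 404 and 418 in IP with shGpr151, against 581, 604 and 642 in input with e5UTR and 638, 608 and 542 in input with shGpr151. Its log2 ratio fell by 2.06 ± 0.11 (SE; edgeR adjusted p = 1.4e-09) in IP, where the pools held 198 and 211 CPM against 860 and 838 CPM in input. The IP columns had fewer counts than every input column although their totals were larger.

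Tars, for threonine, had 91, 95 and 80 counts in IP with e5UTR and 105, 75 and 84 in IP with shGpr151, against 115, 117 and 144 in input with e5UTR and 124, 118 and 145 in input with shGpr151. Its log2 ratio was -2.02 ± 0.13 (SE, edgeR adjusted p = 7.8e-09). The Tars promoter holds a match shown above, and a link between the matches and the ratios was not tested. Qars, for glutamine, had 59, 57 and 45 counts in IP with e5UTR and 46, 52 and 49 in IP with shGpr151, against 29, 31 and 26 in input with e5UTR and 36, 20 and 24 in input with shGpr151. In Qars the counts were thus higher in IP and the scaled level was lower. The log2 ratio of Qars was -0.60 ± 0.18 (SE; edgeR adjusted p = 0.0074) with TMM scaling and 0.33 by library totals, and without the input pool with e5UTR its adjusted p was 0.069. Kars and Tars stayed lower by library totals, at -1.12 and -1.09.

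Mitochondrial synthetase mRNAs did not move together. Of 14 genes only 7 passed the filter on low counts. Of these 7, 3 were higher in IP (Yars2, Tars2 and Fars2), 3 were lower (Cars2, Wars2 and Lars2) and Iars2 did not pass the test. Among all tested genes 33.5% were higher and 36.2% were lower. Yars2, Tars2 and Iars2 passed the filter through their IP columns only. Of the 4 that pass by the input columns alone, 1 (Fars2) was higher and 3 were lower. Among all genes that pass in that way 20.9% were higher and 55.2% were lower. In a fit of every row with no filter, 4 of the 14 were higher and 3 were lower. Of all 14675 rows 3408 were higher and 3915 were lower in that fit. The median log2 ratio of the 14 genes was 0.66, against 1.49 for the 20 cytosolic genes and 0.05 for all rows.

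Cars2, the mitochondrial cysteine enzyme, had the lowest ratio of all tested synthetase genes. Its columns held 57, 56 and 68 counts in IP with e5UTR and 57, 41 and 56 in IP with shGpr151, against 101, 127 and 125 in input with e5UTR and 128, 112 and 145 in input with shGpr151. In CPM this was 28.9 and 26.8 in the IP pools and 166 and 180 in the input pools, a log2 ratio of -2.64 ± 0.14 (SE; edgeR adjusted p = 8.4e-10). By library totals it was still lower, at -1.70.

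Wars2, for tryptophan, had 8, 8 and 11 counts in IP with e5UTR and 15, 14 and 19 in IP with shGpr151, against 23, 18 and 28 in input with e5UTR and 18, 21 and 17 in input with shGpr151. Its log2 ratio was -2.22 ± 0.29 (SE; edgeR adjusted p = 1.0e-05). The counts of IP with shGpr151 overlapped those of input, and the scaled levels of 4.32 and 8.34 CPM in the IP pools and 32.5 and 26.2 CPM in the input pools did not.

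Lars2, for leucine, had by far the most counts among mitochondrial synthetase genes. Its columns held 664, 687 and 585 counts in IP with e5UTR and 808, 760 and 715 in IP with shGpr151, against 550, 527 and 546 in input with e5UTR and 553, 557 and 526 in input with shGpr151. After TMM scaling it stood at 309 and 397 CPM in the IP pools and 764 and 767 CPM in the input pools, a log2 ratio of -1.12 ± 0.13 (SE; edgeR adjusted p = 3.4e-06). By library totals the ratio was -0.18 and the adjusted p was 0.19, so this call depends on the scaling. Mouse Lars2 is known to carry an rRNA-like repeat and overlaps the non-coding gene Gm46137 over 8819 bases in the reference annotation. Whether reads of ribosomal RNA or of that gene were counted to Lars2 was not tested, and each Lars2 value here carries that limit.

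Yars2, for tyrosine, was the mitochondrial gene with the highest ratio among those tested. It had 14, 25 and 15 counts in IP with e5UTR and 13, 11 and 12 in IP with shGpr151, against 2, 1 and 0 in input with e5UTR and 1, 1 and 2 in input with shGpr151. The log2 ratio was 2.16 ± 0.48 (SE; edgeR adjusted p = 0.0013), and with 3 and 4 counts in the input pools the counting intervals of the ratio ran from 1.98 to 30.6 with e5UTR and from 1.2 to 12.9 with shGpr151.

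Tars2, for threonine, had 17, 25 and 15 counts in IP with e5UTR and 24, 25 and 20 in IP with shGpr151, against 6, 4 and 2 in input with e5UTR and 1, 2 and 6 in input with shGpr151. Its log2 ratio was 1.09 ± 0.34 (SE; edgeR adjusted p = 0.012), and without the input pool with shGpr151 the adjusted p was 0.087. Fars2, for phenylalanine, had 34, 39 and 48 counts in IP with e5UTR and 42, 51 and 33 in IP with shGpr151, against 10, 14 and 5 in input with e5UTR and 7, 10 and 11 in input with shGpr151. Its log2 ratio of 0.62 ± 0.22 (SE; edgeR adjusted p = 0.024) was not called without the IP pool with shGpr151 or without either input pool (adjusted p of 0.073 to 0.10). Both genes were thus higher by margins that rested on few input counts. Fars2 also overlaps the non-coding gene Gm40912 over 20270 bases in the reference annotation. Whether reads of Gm40912 were counted to Fars2 was not tested.

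Iars2, for isoleucine, had a log2 ratio of 0.29 ± 0.35 (SE; edgeR adjusted p = 0.48), and this value was not stable. It was -0.04 without the IP pool with shGpr151, 1.27 (adjusted p = 0.065, edgeR) without the second column of input with e5UTR, and 1.21 by library totals, where it was called (adjusted p = 0.0054, edgeR). Its input columns were uneven, with 0, 16 and 0 counts with e5UTR and 0, 4 and 8 with shGpr151, against 16, 13 and 11 in IP with e5UTR and 28, 12 and 16 in IP with shGpr151. It overlaps Rab3gap2 in the reference annotation.

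The other 7 mitochondrial genes, below the filter, were low in every pool. Rars2 had 40 and 22 counts in the IP pools with e5UTR and with shGpr151 and 8 in each input pool, and Hars2 had 23 and 17 in the IP pools and 2 and 3 in the input pools. Aars2 had 13 and 15 counts in the IP pools and 3 in each input pool, Sars2 had 14 and 17 in the IP pools and 4 in each input pool, and Vars2 had 10 and 14 in the IP pools and 0 and 2 in the input pools. Nars2 had 8 and 12 counts in the IP pools and 2 and 1 in the input pools, and Mars2 had 6 in each IP pool and 3 and 1 in the input pools. Of these, Hars2 alone passed the test in the fit without a filter (log2 ratio 1.60, edgeR adjusted p = 0.041). The other genes did not pass in that fit, where the errors were wide, as for Rars2 at 0.57 ± 0.43 (SE). A difference in these genes is not excluded at this depth.

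**Figure D2:**
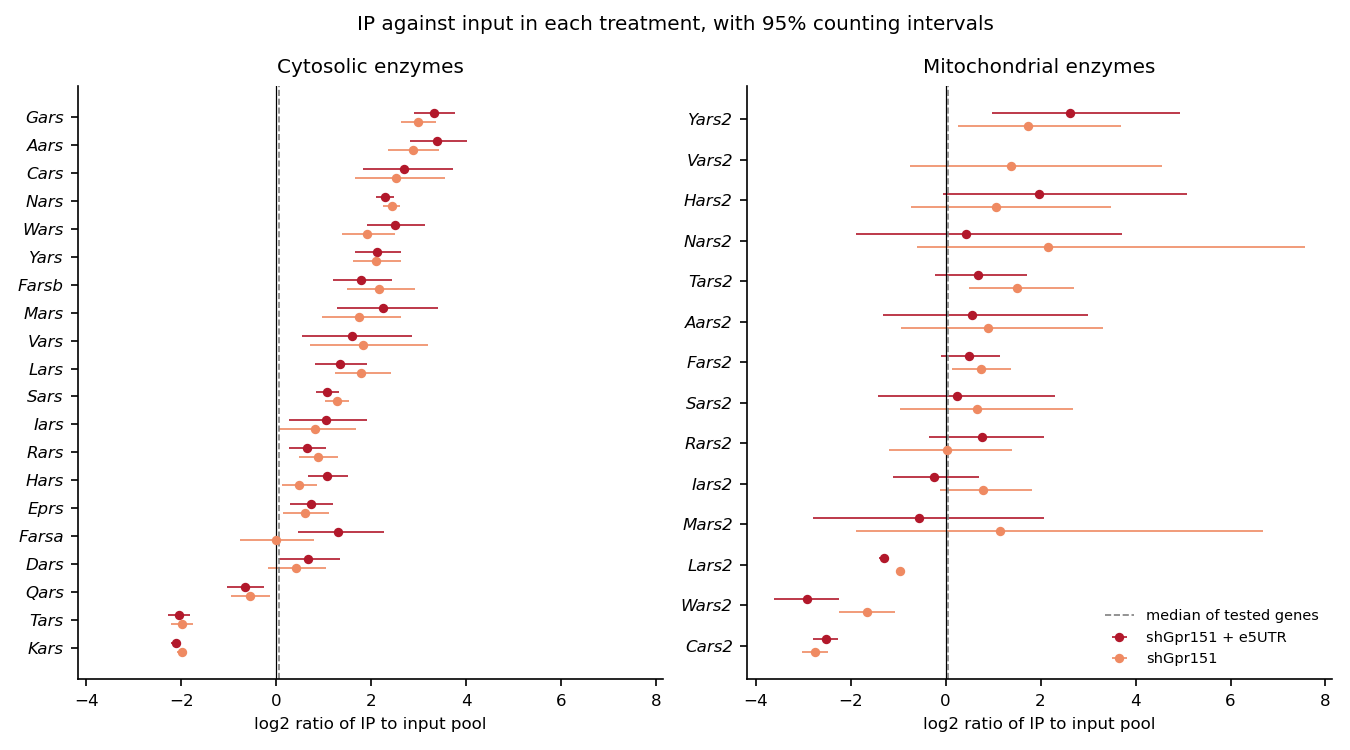
Log2 ratio of the IP pool to the input pool in each treatment, with 95% counting intervals (Clopper-Pearson), for the cytosolic and the mitochondrial genes. Gars stood at the top of the cytosolic genes with a fitted log2 ratio of 3.13 and Kars at the bottom with -2.06. Cars2, Wars2 and Lars2 lay left of 0 in both treatments, and Vars2 with e5UTR is not drawn because its input pool had 0 counts.

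Grouped by role, the cytosolic genes behaved unevenly. The 8 genes of the multi-tRNA synthetase complex were Dars, Eprs, Iars, Kars, Lars, Mars, Qars and Rars. Of these, 6 were higher and 2 were lower (Kars, and Qars, whose ratio was reversed by library totals). Their median log2 ratio was 0.71, with a range of -2.06 to 1.94. The 12 free cytosolic genes were higher in 10 cases and lower in 1 (Tars), with Farsa not passing and a median of 2.03. By the input columns alone 6 complex genes pass the filter, 4 of them higher and 2 lower, and 8 free ones, 7 higher and 1 lower. These shares stand beside the 33.5% of all tested genes, or 20.9% of those that pass by input alone, that were higher. The difference between the complex and the free enzymes was not tested. The scaffold genes Aimp1, Aimp2 and Eef1e1 had log2 ratios of -0.01, -0.51 and -0.29, none of which passed the test, within the range of the complex enzymes.

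The 6 genes whose mutations cause dominant peripheral neuropathy in humans (Aars, Gars, Hars, Mars, Wars and Yars) were all higher in IP, with a median log2 ratio of 2.15. Of the 12 cytosolic genes listed as ATF4 targets, 11 were higher and 1 (Tars) was lower, with a median of 2.03. Of the 8 other cytosolic genes 5 were higher and 2 were lower (Kars, and Qars, whose ratio was reversed by library totals), with a median of 0.69. By catalytic class, 9 of the 10 class I cytosolic genes were higher and 1 was lower (Qars, reversed by library totals), with a median of 1.63. Of the 10 class II genes, 7 were higher and 2 were lower (median 0.96). By the input columns alone, 5 of the neuropathy genes pass the filter, all higher, and 9 of the ATF4 targets, 8 of them higher and 1 lower. Of the other cytosolic genes 5 pass in that way, 3 higher and 2 lower. Of class I 6 pass, 5 higher and 1 lower, and of class II 8 pass, 6 higher and 2 lower. Among all genes that pass in that way 20.9% were higher and 55.2% were lower. Over all tested genes the shares were 33.5% and 36.2%. These lists overlap one another and were chosen with results of these data known, so their counts describe the genes and support nothing further.

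**Figure D3:**
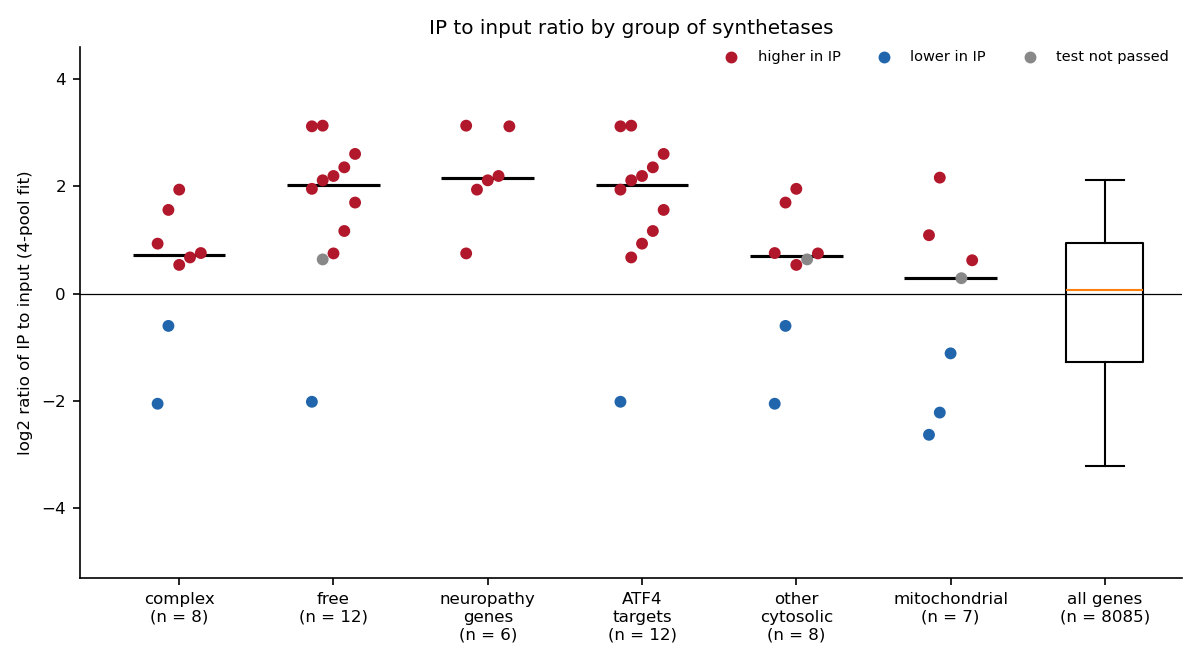
Log2 ratio of IP to input (fit of 4 pools) for each tested gene, by group, with the group median as a bar and all 8085 tested genes as a box (quartiles, with whiskers at 5% and 95% of genes). The medians were 0.71 for the complex, 2.03 for the free enzymes, 2.15 for the neuropathy genes, 0.69 for the other cytosolic genes and 0.29 for the mitochondrial genes. A cytosolic gene can stand in several groups.

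Cytosolic and mitochondrial enzymes were then set side by side for the amino acids with both, in the fit without a filter so that every row had a value. In 11 of 15 pairs the cytosolic gene had the higher log2 ratio, and in 4 (Tars, Hars, Vars and Yars with their mitochondrial partners) it had the lower one. The median difference was 0.71. Where both genes of a pair passed the filter, the cytosolic gene had the higher ratio in 6 of 8 pairs. Of the genes in these pairs, Cars, Farsa, Farsb, Iars, Iars2, Tars2 and Yars2 passed through their IP columns only and so had to be high there. Only Lars with Lars2 and Wars with Wars2 pass by the input columns alone in both genes. The difference between Farsa and Fars2 was 0.016. Fars2 enters with Farsa and again with Farsb.

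The pairs spanned a wide range. The widest gap was that of cysteine, at 2.73 for Cars and -2.51 for Cars2. Tryptophan followed, with 2.32 for Wars and -2.10 for Wars2. Leucine had 1.69 for Lars and -0.99 for Lars2. Threonine stood opposite, with -1.89 for Tars and 1.21 for Tars2, and tyrosine had nearly equal ratios, 2.24 for Yars and 2.29 for Yars2.

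**Figure D4:**
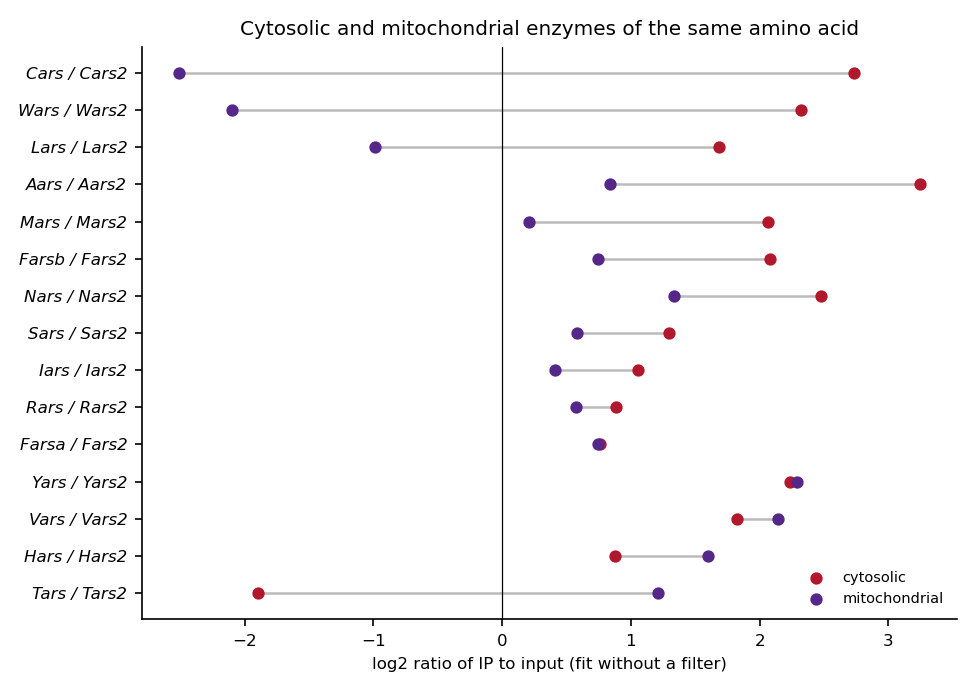
Log2 ratio of IP to input (fit without a filter) for the cytosolic and the mitochondrial enzyme of the same amino acid, joined by a line. Cars with Cars2 showed the widest gap (2.73 and -2.51), and Tars with Tars2 showed the widest gap in the other direction (-1.89 and 1.21).

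Levels were also summed over each set, as values with no test. Cytosolic synthetase mRNAs summed to 1864 and 1934 CPM in the IP pools with e5UTR and with shGpr151 and to 1492 and 1487 CPM in the input pools. Mitochondrial synthetase mRNAs summed to 404 and 499.8 CPM in the IP pools and to 1001 and 1008 CPM in the input pools. Single genes carried these sums. Without Kars, the cytosolic sum was 1666 and 1723 CPM in the IP pools and 632 and 649 CPM in the input pools. Without Nars, the cytosolic sum was 1274 and 1260 CPM in the IP pools and 1370 and 1361 CPM in the input pools, and without Lars2 the mitochondrial sum was 94.9 and 103 CPM in the IP pools and 237 and 242 CPM in the input pools.

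Other genes of tRNA charging gave a mixed picture. Of 13 other tRNA charging and editing genes, 5 were tested, 0 were higher and 3 were lower (Tarsl2, Dtd1 and Pstk). By library totals the log2 ratios of those 3 were -1.20, -0.28 and 0.16, so Pstk turned. By the input columns alone 4 of the 5 tested genes pass the filter, 0 higher and 3 lower. Among all genes that pass in that way 20.9% were higher and 55.2% were lower. Tarsl2, which encodes a second cytosolic threonyl-tRNA synthetase in vertebrates, had a log2 ratio of -2.13 beside the -2.02 of Tars. The carriers of charged tRNA were all higher: Eef1a1, Eef1a2 and the mitochondrial factor Tufm had log2 ratios of 1.53, 2.79 and 1.15. All 3 pass by the input columns alone, where 20.9% of genes were higher. Of 9 mitochondrial translation factors 6 were tested, and Tufm and Gfm1 (1.34), an elongation factor, were higher. Those 2 of 6 stand beside 33.5% of all tested genes. Tufm alone of these 6 passes the filter by the input columns, and Gfm1 entered through IP, where it had to be high.

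Of 17 other genes of the amino acid response, 13 were tested, 11 were higher in IP and 0 were lower, with a median log2 ratio of 1.66. By the input columns alone 7 of them pass the filter, 5 higher and 0 lower, where 20.9% of all such genes were higher. Asns, asparagine synthetase, had 776 and 682 counts in the IP pools and 45 and 31 in the input pools, with a log2 ratio of 2.76. The transcription factor gene Atf4 itself had a log2 ratio of 1.49, and Slc7a5, a carrier of large neutral amino acids, had 2.54 but entered through its IP columns only. Psat1 and Psph, genes of serine synthesis, had 0.38 and 0.26 and did not pass the test.

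Markers of cell types moved with the fraction as well. Of 12 sensory neuron markers 9 were higher in IP, 1 was lower and 2 did not pass, and their summed level was 9305 and 8852 CPM in the IP pools and 4592 and 4619 CPM in the input pools. Markers of satellite glia summed to 261 and 278 CPM in the IP pools and 1582 and 1487 CPM in the input pools (3 of 5 tested markers lower, 1 higher), and Schwann cell markers to 455 and 477 CPM in the IP pools and 1115 and 1143 CPM in the input pools (6 of 7 lower). Macrophage markers summed to 77.2 and 70.2 CPM in the IP pools and 176 and 177 CPM in the input pools (5 of 7 lower, 1 higher), and fibroblast markers to 87.7 and 68.7 CPM in the IP pools and 317 and 321 CPM in the input pools (4 of 5 lower). Erythroid markers summed to 3.04 and 2.26 CPM in the IP pools and 2322 and 2364 CPM in the input pools, with Hbb-bt and Alas2 at 0 in both IP pools. Of 5 endothelial markers none was tested. Among all tested genes 33.5% were higher and 36.2% were lower. Among those that pass the filter by the input columns alone 20.9% were higher and 55.2% were lower. In that way 10 sensory neuron markers pass, 8 higher and 1 lower. The same holds for 4 markers of satellite glia (3 lower, 1 higher) and 7 of Schwann cells (6 lower). It also holds for 5 of macrophages (5 lower) and 5 of fibroblasts (4 lower).

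With TMM scaling, the summed markers of satellite glia, Schwann cells, macrophages, fibroblasts and erythroid cells were thus lower in IP than in input. By library totals the median log2 ratio of tested markers was -1.79 for satellite glia and -3.20 for Schwann cells. It was -0.37 for macrophages, -0.30 for fibroblasts and -10.9 for erythroid cells. Single markers differed, as Glul and Csf1r were higher in IP (1.94 and 1.31) and Cdh19, Pmp22, Cd68 and Col3a1 did not pass. Of the sensory neuron markers, Scn9a was lower in IP (-1.38, and -0.45 by library totals), and Isl1 and Nefl did not pass. IP holds RNA on tagged ribosomes and input holds total RNA. In their ratio, the cell of origin and the loading on ribosomes cannot be told apart. The part of other cell types in the ratios of Kars, Tars, Cars2, Wars2 and Lars2, or of any other synthetase gene, was not tested.

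The e5UTR pools were set against the shGpr151 pools to ask whether adding AAV-e5'UTR changed synthetase mRNAs on ribosomes. With 1 pool a group, these tests compare the reads of these libraries and not the conditions, and the differences have no replicate check. They used edgeR's quasi-likelihood test on the 12 columns. In IP, 0 of 27 tested synthetase genes were higher with e5UTR and 2 were lower, Lars2 and Nars, where 11% of all tested genes were called in either direction (381 higher and 505 lower of 8085).

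Lars2 had 1936 counts in the IP pool with e5UTR and 2283 in that with shGpr151, whose totals were 4549204 and 4145071. Its 3 columns with e5UTR (664, 687 and 585) lay below its 3 columns with shGpr151 (808, 760 and 715). The log2 ratio fell by 0.35 ± 0.05 (SE; edgeR adjusted p = 2.2e-05), and the ratio of pooled CPM was 0.780 (95% interval 0.733 to 0.829). In input the same gene had 1623 counts with e5UTR and 1636 with shGpr151, a ratio of 0.997 (0.930 to 1.07). The difference between the fractions was itself called, at a log2 value of -0.35 ± 0.08 (SE; edgeR adjusted p = 0.0051). It was the only synthetase gene called for that difference, where 5.11% of tested genes were called.

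Nars had 3695 counts in the IP pool with e5UTR and 3876 in that with shGpr151, a log2 ratio of -0.19 ± 0.04 (SE; edgeR adjusted p = 0.0013). The ratio of pooled CPM was 0.876 (95% interval 0.838 to 0.917). In input it was 0.967 (0.812 to 1.15), and the difference between fractions was not called (edgeR adjusted p = 0.69).

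Other synthetase genes in IP did not pass. Wars2 had 27 counts with e5UTR and 48 with shGpr151, a log2 ratio of -0.93 ± 0.31 (SE; edgeR adjusted p = 0.054). Aars had 799 counts with e5UTR and 630 with shGpr151, a log2 ratio of 0.23 ± 0.08 (adjusted p = 0.075, edgeR). Farsa had 94 and 56 counts, a log2 ratio of 0.63 ± 0.25 (adjusted p = 0.12, edgeR).

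The median log2 ratio in IP was 0.02 over the 20 cytosolic genes and -0.35 over the 7 tested mitochondrial genes, beside 0.002 over all tested genes. The mitochondrial median was the value of Lars2 itself. Cars2 (0.12) and Yars2 (0.46) had positive ratios. Fars2 (-0.17), Iars2 (-0.59), Tars2 (-0.39) and Wars2 (-0.93) had negative ones, and apart from Lars2 no mitochondrial gene was called. In input, 0 of 27 synthetase genes were called in the edgeR test, where 0.198% of tested genes were. Hars alone had an unadjusted p below 0.05 there, with 55 counts with e5UTR and 81 with shGpr151 and a log2 ratio of -0.55 ± 0.25 (SE; edgeR adjusted p = 0.97). DESeq2 and limma-voom also called 0 synthetase genes in input.

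**Figure D5:**
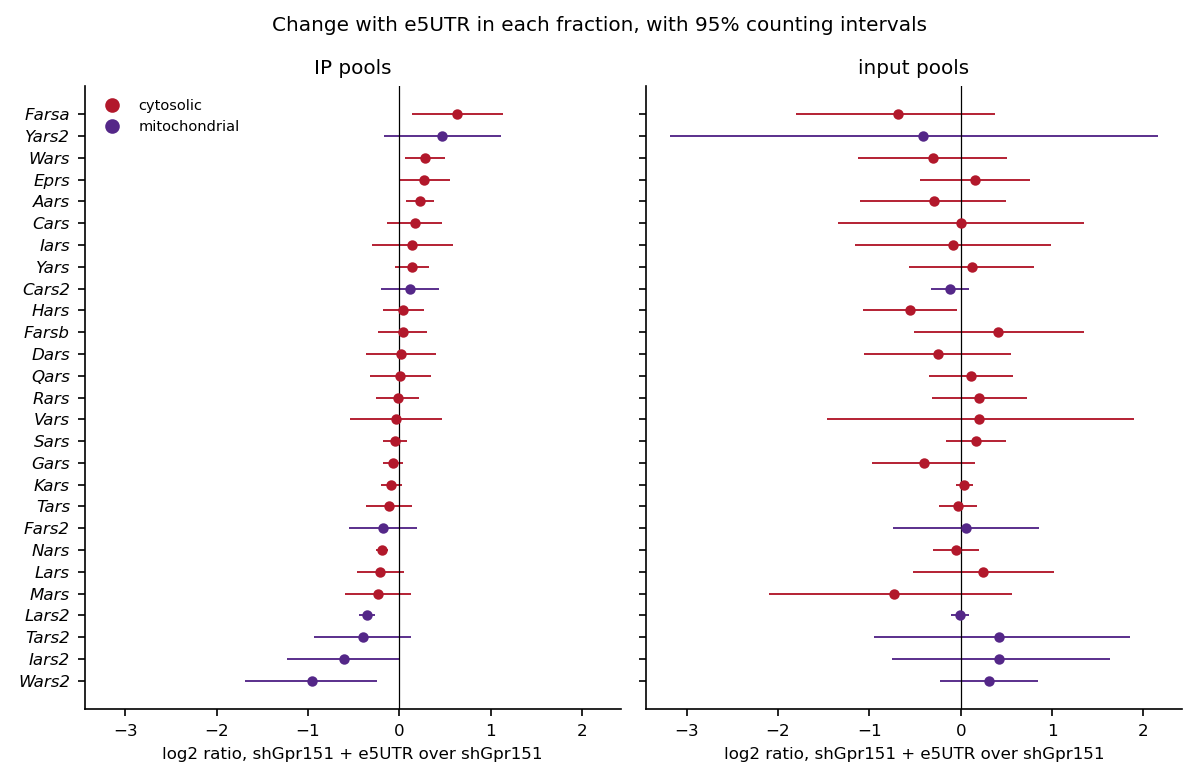
Log2 ratio of the e5UTR pool to the shGpr151 pool for the 27 tested synthetase genes, in IP and in input on the same axis, with 95% counting intervals. Lars2 and Nars, with fitted values of -0.35 and -0.19 in IP, had narrow intervals left of 0 in IP and intervals across 0 in input.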

How the data were processed

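Gene-level values are the authors' deposited estimated counts, expected counts written as whole numbers, in 12 columns matched to samples by name. The libraries came from an Oxford Nanopore cDNA-PCR barcoding kit, per the labels' protocols. Minimap2, Salmon, GRCm39 and mm39 are named in the submitters' processing notes, without versions or roles. Nothing read here states the counting settings, the use of strand or any filter. A symbol was found for 13191 of 14675 identifiers (89.9%). The synthetase genes, gene lists and tests were chosen with earlier results of these data known. Under the rule, 1 gene and 1 promoter window are not reported here. Every other synthetase gene is named, with full values for those at the ends of the IP ratio and those called for e5UTR.

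Columns of a group were summed to pools for IP against input (2 pools against 2). The other comparisons used 1 model of 4 group means over 12 columns. Both used edgeR 4.0.16 in R 4.3.3 (quasi-likelihood test, TMM, filterByExpr with a minimum count of 10 and a minimum total of 15, Benjamini-Hochberg, threshold 0.05). TMM factors of the pools were 1.38 and 1.39 in IP and 0.725 and 0.722 in input. Pool ratios have exact 95% intervals. Alternatives were library totals, DESeq2 1.42.0 and its size factors, limma-voom 3.58.1, other filters, the treatment as a term, all 12 columns with and without the replicate number, and leaving out columns or pools. The fitting steps were tested on simulated data. Promoters are from RefSeq, GRCm38.p6, and the same annotation gave the overlapping genes.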

Additional observations from a re-analysis of the deposited data

Results flagged for a closer look

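The change of Lars2 with e5UTR differed between IP and input by a log2 value of -0.35 ± 0.08 (SE; edgeR adjusted p = 0.0051), in a test of the difference itself. In IP the 3 columns with e5UTR held fewer counts than the 3 with shGpr151, while in input the columns of both treatments overlapped. With 1 pool a group this compares these libraries. Mouse Lars2 is known to carry an rRNA-like repeat, and whether ribosomal RNA reads were counted to it was not tested.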

How the results depend on the processing

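Over 25 alternatives for IP against input, 17 of the 27 tested synthetase genes kept direction and call wherever they were tested. The median of the cytosolic genes was 2.30 by library totals and 1.52 without the IP pool with e5UTR. The median of the 7 mitochondrial genes was 1.21 by library totals, -0.40 with a mean of at least 10 counts and -0.0403 without the IP pool with shGpr151. Leaving out 1 column moved it between -0.51 and 0.75, as fewer or other genes then passed the filter, so its sign is not fixed. Only 1 mitochondrial gene was higher with DESeq2 and without the input pool with shGpr151. DESeq2 did not call Dars, Eprs, Iars, Qars, Fars2 or Tars2, the 12 columns without a block called Farsa, and with the treatment as a term Dars was not called (adjusted p = 0.055, edgeR), which left 15 cytosolic genes higher. Qars turned to 0.33 by library totals and Iars2 to -0.0403 without the IP pool with shGpr151, and Iars2 ran from 0.005 to 1.27 when a column was left out.

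Lars2 and Nars were called for e5UTR in IP under all 19 alternatives run. There, 2 mitochondrial genes were called with DESeq2 size factors, library totals or a mean of at least 10 counts, 2 cytosolic genes with limma-voom, and 1 to 2 in each set when a column was left out. In input the count of genes called ran from 10 to 19 when a column was left out. Values near 0 changed sign there: Lars2 was 0.000999 by library totals and ran from -0.0284 to 0.0146, and Nars from -0.127 to 0.0342, when a column was left out. The difference between fractions was called for 1 to 2 mitochondrial genes.

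Columns with the same number did not deviate together (18 correlations, -0.20 to 0.22). As the columns of a group differed by little more than counting noise, this cannot show whether the numbers pair samples. With the replicate block, 17 cytosolic genes were higher and 3 were lower, and 816 genes were called for e5UTR in IP. Genes under 10 counts a pool limit most mitochondrial comparisons.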
